A study of Mus musculus with 16 samples.

Results

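Lipid droplets are the cell's fat stores: a core of triglyceride and sterol esters under a single layer of phospholipid, which carries a coat of proteins. Perilipins cover the surface and limit the access of lipases, CIDE proteins (cell death-inducing DFFA-like effectors) join droplets and pass lipid from the smaller to the larger one, and the lipase ATGL with its activator and its inhibitor sets how fast the stored triglyceride is released. In a fatty liver hepatocytes fill with such droplets, and the coat proteins rise or fall with the amount of fat. The 10 lipid droplet genes described here are those of the CIDE family (Cidea, Cideb, Cidec), perilipins 2 to 5 (Plin2, Plin3, Plin4, Plin5), ATGL (Pnpla2), its activator CGI-58 (Abhd5) and its inhibitor (G0s2). They were chosen by gene symbol, and all 10 of them were measured, each by 1 probe set, among 19505 genes in all.

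The samples were liver RNA of C57BL/6 mice on 1-colour Affymetrix-type arrays: 8 from a model of nonalcoholic steatohepatitis (NASH), fatty liver with inflammation, and 8 controls. The labels call all of them biopsies and write C for control and CD for the model, which they do not spell out. How the model was induced, and the sex, age, feeding state and time of collection of the mice, are not given in the sources used here. The title of the series names the stimulation of soluble guanylate cyclase, but no treated group is analysed here, so the comparison is between model and control liver. Samples are named by group and by their label number, and the NASH model group holds 1a and 1b.

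Values are log2 intensities, where a difference of 1 is a factor of 2, and levels of different genes are not compared because each probe set has its own brightness. Differences are NASH model minus control. A gene was called when limma's moderated test, adjusted by Benjamini-Hochberg over all 19505 genes, gave an adjusted p under 0.05. By that rule 26.6% of all genes were called, 13.2% higher and 13.4% lower. The split between directions depends on the scaling, with 49.6% of calls higher here, 39.2% with arrays centred on their medians and 77.3% with arrays centred on the hybridization spike-in controls. A floor of 2.89, the 95th percentile of olfactory and vomeronasal receptor genes, marks the level under which a signal cannot be told from background.

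Markers of some cell types in liver moved with the groups. The counts of called markers are read against the 13.2% of all genes called higher and the 13.4% called lower. The hepatocyte transcript Alb, among the brightest on the array, stood at 12.64 ± 0.02 in NASH model and 12.62 ± 0.05 in control livers (SD, n = 8 each). Quantile normalization gives the brightest genes a few shared values, so this small spread is partly set by the processing. Of 11 measured hepatocyte markers 3 were called lower and 0 higher: Hnf4a by -0.66, Fah by -0.41 and Asgr1 by -0.31 (limma, adjusted p = 5.4e-05, 5.8e-04 and 0.0069). The mean log2 level over the 11 genes ran from 11.08 to 11.27 in NASH model and from 11.25 to 11.35 in control livers.

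Of 9 lipid-laden macrophage markers 8 were called higher and 0 lower, with mean levels over the 9 genes of 8.18 to 8.85 in NASH model against 4.34 to 4.80 in control livers. Of 8 Kupffer cell markers, those of the resident macrophages, 5 were called lower and 1 higher, with mean levels of 5.31 to 6.24 in NASH model and 6.25 to 7.53 in control livers. Cd163 fell by 2.84 and Timd4 by 2.002 (limma, adjusted p = 5.6e-12 and 4.9e-06). In NASH model livers 3 of 8 values of Cd163 and 5 of 8 of Timd4 lay below the floor, so the size of both falls is uncertain. Of 8 stellate cell markers 5 were called higher and 0 lower, with mean levels of 6.23 to 6.63 in NASH model and 5.19 to 5.61 in control livers. The collagens Col3a1 and Col1a1 rose by 2.95 and 1.86 (limma, adjusted p = 5.2e-08 and 6.7e-08).

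Of 7 white adipocyte markers 0 were called higher and 1 lower, against 13.2% and 13.4% of all genes. Mean levels over the 7 genes were 4.01 to 4.34 in NASH model and 4.14 to 4.41 in control livers. Adipoq and Lep lay below the floor in all 16 samples, while Pck1, which hepatocytes also express, stood at 11.34 ± 0.14 in NASH model and 11.18 ± 0.12 in control livers (SD). Of 6 brown adipocyte markers 0 were called higher and 2 lower, and Ucp1 and Dio2 lay below the floor in all 16 samples. The mean level over the 6 genes ran from 2.53 to 3.13 in NASH model and from 3.82 to 4.15 in control livers, with Elovl3, which hepatocytes also express, at 4.14 ± 1.29 in NASH model and 9.93 ± 0.86 in control livers (SD). In whole liver, more cells of a type and more RNA per cell cannot be told apart, and the part of these cell types in the droplet gene results was not tested.

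In the model 4 of the 10 genes were called higher and 0 lower, against 13.2% and 13.4% of all genes, and the median log2 difference of the 10 was 0.25 against -0.04 over all genes. Cidec rose about 10-fold, Plin4 and Pnpla2 each rose about 2-fold and Plin3 rose 1.27-fold. The 3 called higher by at least 2-fold compare with 4.02% of all genes. Cidea, Cideb, Plin2, Plin5, G0s2 and Abhd5 did not pass. In 2 members, Cidec and Pnpla2, every NASH model sample lay above every control sample, a separation that 5.65% of all genes showed in that direction and 9.54% in either.

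**Figure D1:**
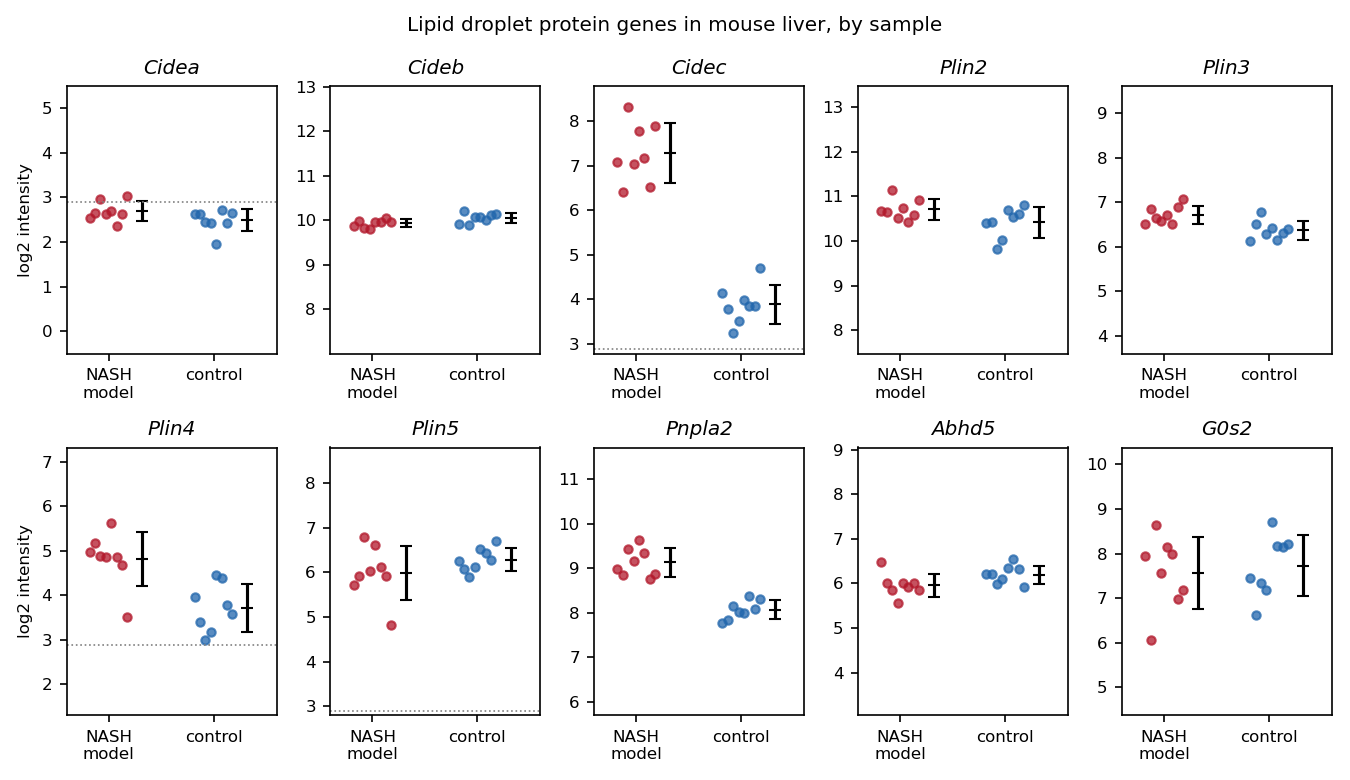
Log2 intensity of the 10 lipid droplet genes in each sample (points; NASH model red, control blue), with the group mean and SD beside them (n = 8 each). Every panel spans 6 log2 units, and the dotted line, where in range, is the background floor of 2.89. Cidec and Pnpla2 separate fully, and Plin4 does so but for NASH model 7.

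Of the 3 CIDE genes Cidec was called and Cidea and Cideb were not. Cidec, also called Fsp27, drives the growth of the large droplets of white fat and is induced in steatotic liver. Its level ran from 6.40 through a median of 7.12 to 8.32 in NASH model livers, against 3.25 through 3.86 to 4.70 in control livers. All 8 model samples stood above the highest control, with model 2 highest and model 1b lowest. The mean difference was 3.39 ± 0.25 SE on the log2 scale, a 10.5-fold rise with a 95% confidence interval of 7.30 to 15.02 (limma, adjusted p = 4.5e-09). By size of the difference Cidec ranked 27 of 19505 genes. All control values were above the floor.

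Cideb is the CIDE protein of hepatocytes, where it takes part in droplet fusion and in loading lipid onto very low density lipoprotein. It ran from 9.81 through 9.97 to 10.05 in NASH model livers and from 9.90 through 10.07 to 10.21 in control livers, so the groups overlapped. Its difference of -0.12 ± 0.08 SE did not pass (limma, adjusted p = 0.25; 95% interval -0.28 to 0.03), and it had the smallest SD of the 10 genes in both groups, 0.09 in NASH model and 0.11 in control livers. Cidea, best known from brown fat and from fatty liver of obese mice, was at background: 6 of 8 NASH model and 8 of 8 control samples lay below the floor. The model samples above it were 2 and 7, at 2.97 and 3.03. No fold is given for Cidea, whose log2 difference was 0.20 ± 0.12 SE (limma, adjusted p = 0.23).

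To test whether family members changed unequally, the difference between 2 genes was taken within each sample, which also cancels any shift of a whole array. The 8 pairs taken were compared with an exact two-sided permutation test over all assignments of samples to groups, adjusted over the 8 pairs. The change of Cidec exceeded that of Cideb by 3.51 ± 0.29 SE, with no overlap between groups (exact permutation, adjusted p = 3.1e-04; the unadjusted p of 1.55e-04 is the smallest this design can give). The pair of Cidec and Cidea is not read as a comparison, because Cidea was at background.

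The promoters of the genes that were higher are printed because these 4 moved the same way. In RefSeq (GRCm38.p6) 9 of the 10 genes matched, all but Cidea, with 11 windows in all because Cidec and Plin5 have a second start. Shown are the 250 bases before the start, 5′ to 3′ on the gene's strand, for Cidec at chr6:113435761-113436010 (minus strand) and, 996 bases downstream, chr6:113434765-113435014, for Plin4 at chr17:56109783-56110032 (minus), Pnpla2 at chr7:141454938-141455187 (plus) and Plin3 at chr17:56290512-56290761 (minus). Capitals mark matches, on either strand, to 6 motifs: the nuclear receptor half-site AGGTCA, its DR1 repeat (the half-site and again the half-site in the same direction, 1 base apart, bound by PPAR with RXR), the E-box CACGTG, the GC box GGGCGG, the TATA box TATAAA and the CCAAT box CCAAT.
Cidec, upstream start: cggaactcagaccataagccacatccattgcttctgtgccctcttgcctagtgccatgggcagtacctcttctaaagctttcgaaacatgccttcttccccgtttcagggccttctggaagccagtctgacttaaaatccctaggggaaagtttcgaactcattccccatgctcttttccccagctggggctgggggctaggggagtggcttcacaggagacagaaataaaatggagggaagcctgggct
Cidec, downstream start: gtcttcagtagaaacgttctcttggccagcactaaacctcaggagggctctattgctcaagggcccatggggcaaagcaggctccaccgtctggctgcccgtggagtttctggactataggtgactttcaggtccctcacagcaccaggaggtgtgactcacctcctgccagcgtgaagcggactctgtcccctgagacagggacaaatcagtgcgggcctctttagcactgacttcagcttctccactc
Plin4: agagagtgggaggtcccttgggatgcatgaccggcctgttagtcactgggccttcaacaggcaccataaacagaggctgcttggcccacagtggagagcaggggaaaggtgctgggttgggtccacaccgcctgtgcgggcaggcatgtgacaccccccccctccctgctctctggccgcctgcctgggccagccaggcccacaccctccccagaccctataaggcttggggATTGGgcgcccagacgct
Pnpla2: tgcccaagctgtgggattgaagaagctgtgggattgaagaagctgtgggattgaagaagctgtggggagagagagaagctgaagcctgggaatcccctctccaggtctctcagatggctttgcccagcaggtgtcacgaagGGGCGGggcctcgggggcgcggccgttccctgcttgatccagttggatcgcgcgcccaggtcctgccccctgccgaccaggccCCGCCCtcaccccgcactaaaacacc
Plin3: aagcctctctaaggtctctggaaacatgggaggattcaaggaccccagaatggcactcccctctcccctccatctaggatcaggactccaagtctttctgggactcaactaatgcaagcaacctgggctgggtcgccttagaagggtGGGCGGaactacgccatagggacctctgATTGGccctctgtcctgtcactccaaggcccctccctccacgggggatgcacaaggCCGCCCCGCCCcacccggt

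None of the 6 motifs lay in either Cidec window. In Plin4 the only match was a CCAAT box on the opposite strand, 18 to 14 bases before the start. Pnpla2 held 2 GC boxes and Plin3 held 3 GC boxes, 2 of them overlapping, and 1 CCAAT box. The DR1 repeat was in 0 of the 11 member windows and in 0.0335% of all 32851 windows of this length. The GC box was in 7 of 11 member windows, against 32.7% of all windows, and the half-site in 3 of 11 (those of Plin2, Plin5 and Abhd5, which were not called), against 14.0%. A match describes these letters only, and elements outside the windows were not searched.

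The perilipins did not move as one. Plin4, a coat protein of small, young droplets that is abundant in white fat and muscle, rose by 1.105 ± 0.251 SE on the log2 scale, 2.15-fold with a 95% interval of 1.495 to 3.095 (limma, adjusted p = 0.0024). It ran from 3.52 through 4.87 to 5.63 in NASH model livers, against 3.003 through 3.68 to 4.45 in control livers. In all, 7 model samples lay above the highest control and model 7, the lowest, lay within the control range. Without model 7 the rise was 1.29 (limma, adjusted p = 1.2e-04).

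Plin3, a widely expressed perilipin that shuttles between cytosol and droplet, ran from 6.51 through 6.68 to 7.08 in NASH model livers and from 6.14 through 6.35 to 6.77 in control livers. Its rise was 0.35 ± 0.11 SE, 1.27-fold (limma, adjusted p = 0.020), and 3 model samples exceeded the highest control. This call was the least stable of the 4: it was lost without NASH model 2 and 7 (0.30, adjusted p = 0.061) and with a clock gene score as a covariate (0.30, adjusted p = 0.25).

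Plin2 is the main perilipin of hepatocytes and is degraded when it is not bound to a droplet, so its protein tracks stored fat. Its transcript ran from 10.42 through 10.66 to 11.14 in NASH model livers and from 9.81 through 10.48 to 10.80 in control livers. The difference of 0.29 ± 0.14 SE missed the threshold (limma, adjusted p = 0.14; 95% interval 0.00 to 0.58), and 2 model samples exceeded the highest control. Plin5, which tethers droplets to mitochondria in oxidative tissue and holds back lipolysis, ran from 4.82 through 5.98 to 6.79 in NASH model and from 5.90 through 6.27 to 6.72 in control livers. Its difference was -0.30 ± 0.21 SE (limma, adjusted p = 0.33), with model 7 lowest by a wide margin and model 2 highest.

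Within samples, Plin4 moved away from Plin5 by 1.40 ± 0.20 SE, with no overlap between groups (exact permutation, adjusted p = 3.1e-04). Plin2 moved away from Plin5 by 0.59 ± 0.23 SE (exact permutation, adjusted p = 0.0044), or 0.39 without NASH model 7. For Plin2 against Plin3 no unequal change was detected, at -0.06 ± 0.19 SE (exact permutation, adjusted p = 0.85). Plin4 and Plin5 are direct neighbours in the RefSeq gene table and Plin3 lies on the same chromosome, 17.

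**Figure D2:**
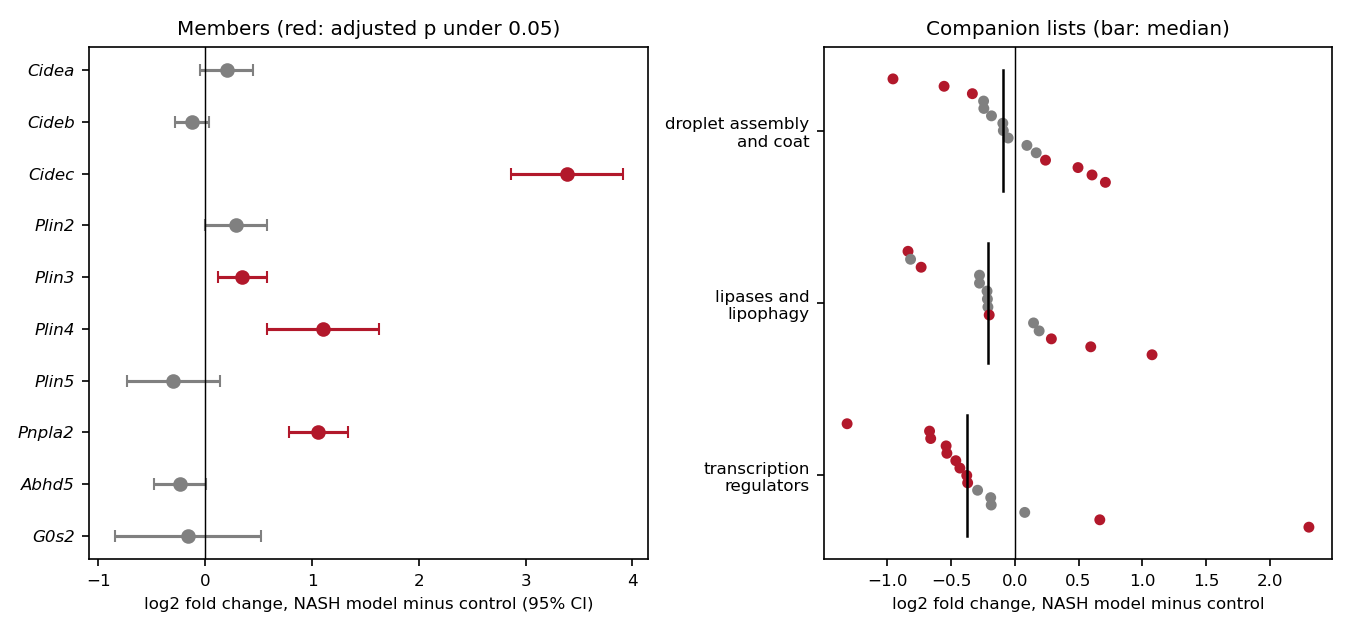
Left, log2 fold change of each lipid droplet gene, NASH model minus control, with its 95% confidence interval (n = 8 each; red, adjusted p under 0.05). Right, the same quantity for each gene of 3 companion lists, with the list median as a bar; the medians lie at -0.09, -0.21 and -0.38.

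Of the lipase and its partners, the lipase alone passed. Pnpla2 encodes ATGL, which takes the first fatty acid off stored triglyceride, and it ran from 8.75 through 9.08 to 9.64 in NASH model livers, against 7.78 through 8.06 to 8.37 in control livers. The groups did not overlap, with model 6 the lowest of its group and control 7 the highest of its own. The rise was 1.06 ± 0.13 SE, 2.09-fold with an interval of 1.72 to 2.52 (limma, adjusted p = 4.2e-06).

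Abhd5 encodes CGI-58, which binds ATGL and raises its activity. It ran from 5.56 through 5.96 to 6.48 in NASH model livers and from 5.91 through 6.20 to 6.54 in control livers. Its difference of -0.24 ± 0.12 SE did not pass (limma, adjusted p = 0.16), but it passed as lower without NASH model 1a, the highest of its group (-0.31, adjusted p = 0.036). G0s2 encodes a small protein that binds ATGL and blocks it, and it varied most among the 10 genes, from 6.06 through 7.76 to 8.65 in NASH model and from 6.63 through 7.80 to 8.71 in control livers. Its difference was -0.16 ± 0.33 SE (limma, adjusted p = 0.77), with a 95% interval of -0.85 to 0.52 that leaves changes of either sign possible.

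The change of Pnpla2 exceeded that of Abhd5 by 1.30 ± 0.19 SE, and the groups did not overlap (exact permutation, adjusted p = 3.1e-04). The change of G0s2 lay below that of Pnpla2 by 1.22 ± 0.30 SE (exact permutation, adjusted p = 0.0017). Here the groups overlapped, at -2.79 to -0.78 in NASH model and -1.21 to 0.72 in control livers. Relative to its activator and, on average, to its inhibitor, the lipase transcript was therefore higher in the model. G0s2 against Abhd5 gave 0.07 ± 0.37 SE (exact permutation, adjusted p = 0.85).

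**Figure D3:**
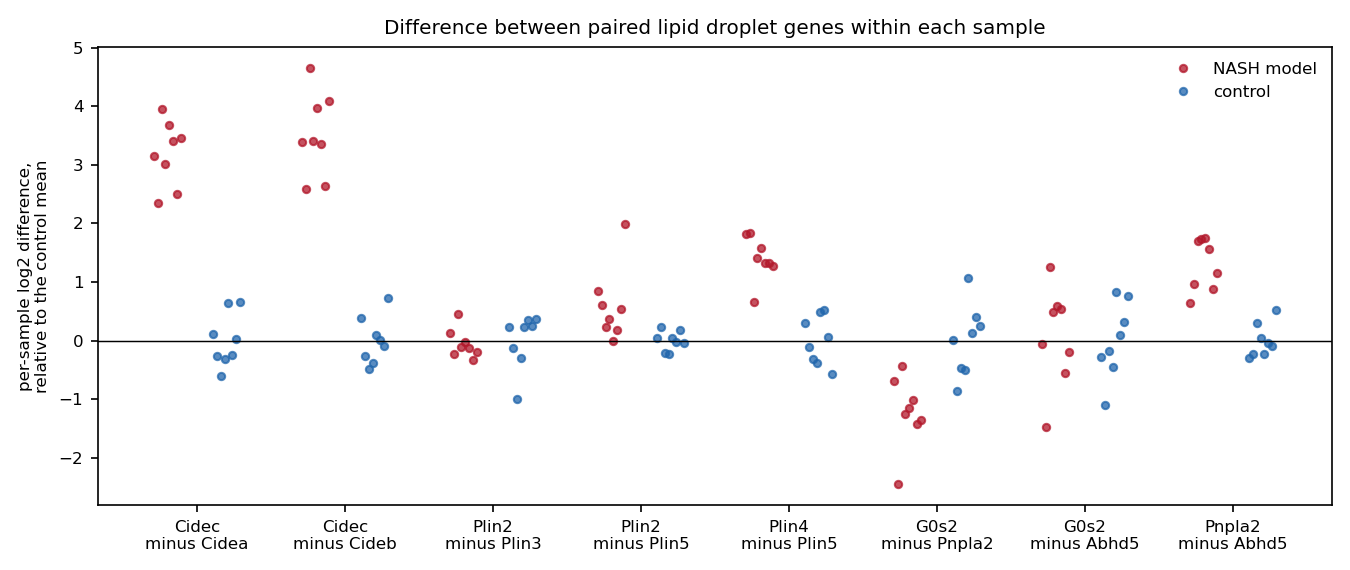
Difference in log2 intensity between 2 lipid droplet genes within each sample, set to 0 at the control mean of each pair (points; NASH model red and left, control blue and right; n = 8 each). The groups are apart in Cidec minus Cidea (with Cidea at background), Cidec minus Cideb, Plin4 minus Plin5 and Pnpla2 minus Abhd5, and overlap in the other 4 pairs.

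Members also differed in how much they spread among samples of a group. The SD over NASH model samples was 0.81 for G0s2, 0.67 for Cidec, 0.60 for Plin4 and Plin5 and at most 0.32 for the other 6 genes. NASH model 4 lay above its group mean in all 10 genes, but by 0.055 or less in Cidea, Cideb, Plin2, Plin3 and Abhd5. Model 2 did so in 7 of 10, with the highest Cidec, Plin2, Plin5 and G0s2 of the group. Model 7 combined the second highest Cidec (7.89) and Plin2 (10.92) with the lowest Plin4 (3.52) and Plin5 (4.82).

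Whether Cidec and the other 9 genes vary together was examined within each group, 18 relations in all, and none passed after adjustment. In NASH model livers Cidec and G0s2 gave Pearson's r = 0.74 (exact permutation p = 0.036, adjusted p = 0.16) and Spearman's rho = 0.76 (exact p = 0.037, adjusted p = 0.22). Without the 2 samples farthest from the Cidec median r was 0.87 (exact permutation, adjusted p = 0.15). Cidec and Pnpla2 gave r = 0.62 (exact permutation p = 0.10, adjusted p = 0.31) and rho = 0.67 (exact p = 0.083, adjusted p = 0.25). Without those 2 samples r was 0.94 (exact permutation, adjusted p = 0.125). Cidec and Plin2 gave r = 0.76 (exact permutation p = 0.025, adjusted p = 0.15) and rho = 0.67 (exact p = 0.083, adjusted p = 0.25), with r = 0.20 without those 2 samples, on which it therefore rests. In control livers Cidec gave r = 0.85 with Plin2 (exact permutation p = 0.0061) and r = 0.86 with Plin5 (exact p = 0.0066), each with an adjusted p of 0.059, rho = 0.76 (exact p = 0.037) and 0.81 (exact p = 0.022), each with an adjusted p of 0.22. Without the 2 samples farthest from the median these were 0.69 and 0.50, so the relation to Plin5 in particular leans on those samples.

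**Figure D4:**
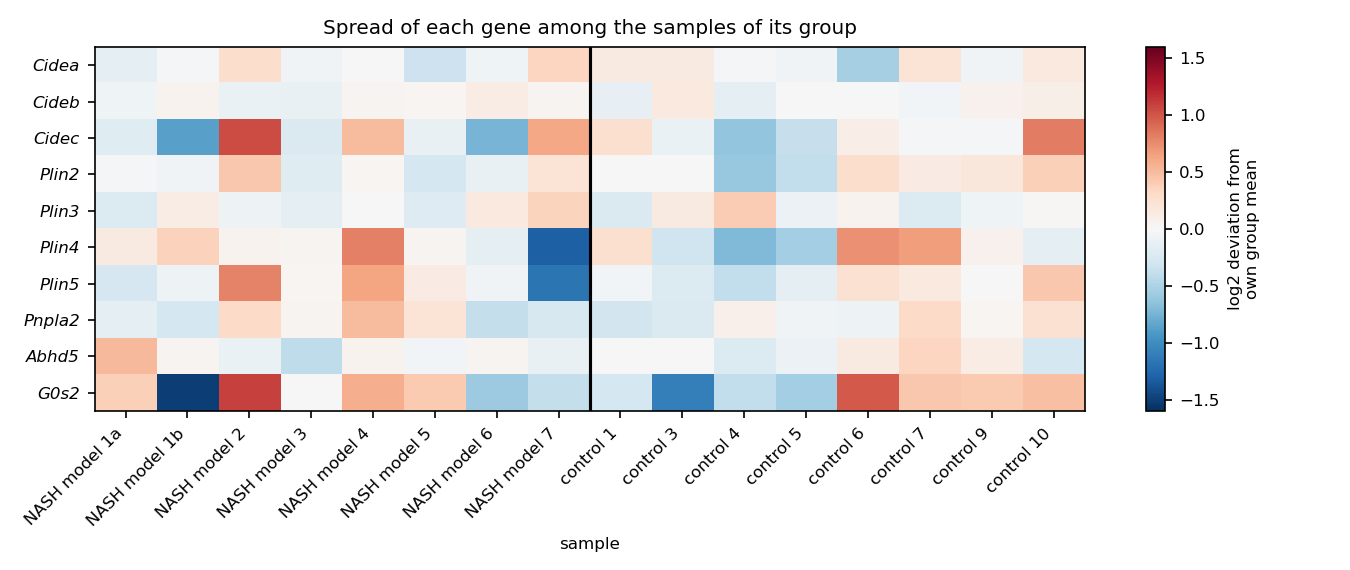
Deviation of each lipid droplet gene from the mean of its own group (log2 units, red above, blue below), by sample, with NASH model samples left of the line and controls right. NASH model 4 is above the mean in all 10 genes, but by 0.055 or less in Cidea, Cideb, Plin2, Plin3 and Abhd5. Model 7 is low in Plin4 and Plin5, and controls 4 and 5 are low in Cidec, Plin2 and Plin4.

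Controls 4 and 5 had the lowest Cidec (3.25 and 3.51), Plin2 (9.81 and 10.02) and Plin4 (3.003 and 3.17) of the control group. They also stood apart in a score built from 17 circadian clock genes. The score lay between 1.06 and 2.38 in NASH model samples and between -3.62 and -1.58 in 6 of the 8 controls, while control 4 scored 0.59 and control 5 scored 2.54. The score and the group thus moved together, and the members are given in 2 further ways.

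With the clock score as a covariate Plin2 was higher by 0.70 ± 0.17 SE (limma, adjusted p = 0.0075), and without controls 4 and 5 its difference was 0.13 ± 0.12 SE (limma, adjusted p = 0.48). Plin2 thus passed with the covariate, and not with group alone or without the 2 controls. Cidec kept its rise, at 3.66 with the covariate and 3.22 without the 2 controls. Plin4 stood at 1.68 and 0.90, and Pnpla2 at 1.07 in both, and all 3 genes passed in both fits. G0s2 changed sign with the covariate, to 0.27 ± 0.48 SE (limma, adjusted p = 0.78).

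**Figure D5:**
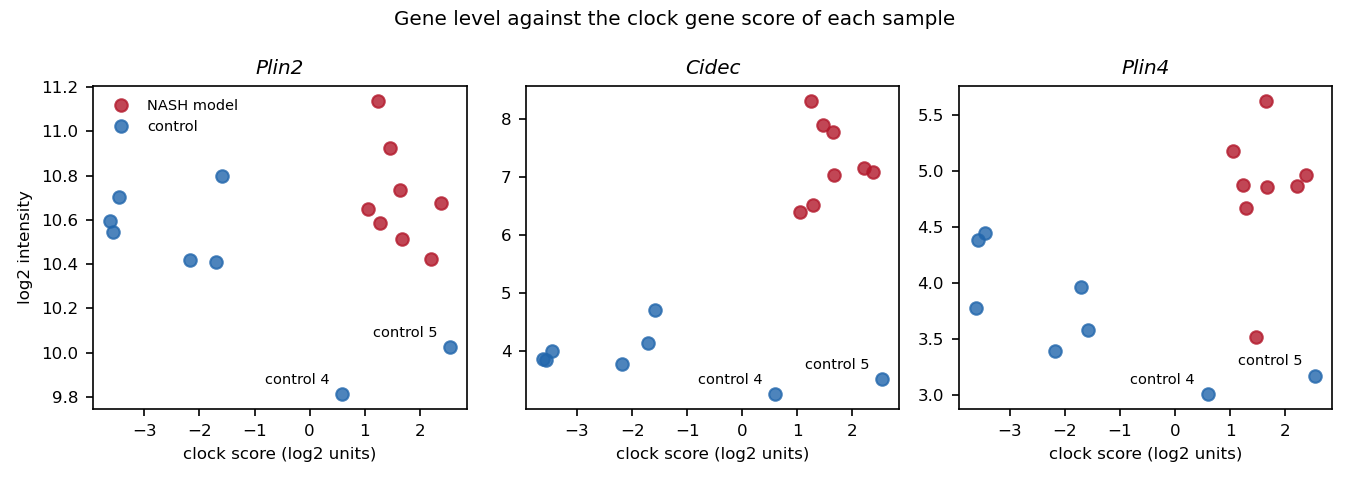
Log2 intensity of Plin2, Cidec and Plin4 against the clock gene score of each sample (NASH model red, control blue; n = 8 each). Controls 4 and 5 have the scores nearest to those of the model samples and the lowest levels of the 3 genes among controls.

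Other genes of droplet assembly and coat were called in both directions. Of 15 measured (Ldaf1, Acsl3 and Rnf213 are not analysed here), 4 were called higher and 3 lower, against 13.2% and 13.4% of all genes, with a median log2 difference of -0.09 against -0.04 over all genes. Hsd17b13, a droplet enzyme of hepatocytes linked to human fatty liver disease, rose by 0.61 ± 0.09 SE without overlap between groups, at 11.56 ± 0.19 in NASH model and 10.95 ± 0.11 in control livers (SD; limma, adjusted p = 4.8e-05). Hilpda, an inhibitor of ATGL related to G0s2 in action, rose by 0.71 ± 0.23 SE (limma, adjusted p = 0.025). It was highest in NASH model 2 (5.81), and the call was lost when NASH model 2 and 7 were left out (0.50, adjusted p = 0.067), without control 3 (0.62, adjusted p = 0.052) or without controls 4 and 5 (0.67, adjusted p = 0.067).

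Ldah, a droplet-associated hydrolase, fell by 0.96 ± 0.10 SE, with no overlap (limma, adjusted p = 7.4e-07). Plin1, the perilipin of white adipocytes, stood at 2.76 ± 0.51 in NASH model and 2.66 ± 0.56 in control livers (SD), below the floor in 6 of 8 samples of each group. Bscl2, the seipin of droplet budding, differed by -0.09 ± 0.08 SE (limma, adjusted p = 0.46).

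Of 14 lipases and lipophagy genes 3 were called higher and 3 lower, against 13.2% and 13.4% of all genes, with a median of -0.21. Ces1g, a carboxylesterase of hepatocytes, rose by 1.08 ± 0.23 SE (limma, adjusted p = 0.0016). The monoglyceride lipase Mgll, which ends the chain of lipolysis that ATGL begins, fell by 0.84 ± 0.11 SE (limma, adjusted p = 1.0e-05), and the arylacetamide deacetylase Aadac fell by 0.73 ± 0.09 SE (limma, adjusted p = 2.9e-06). Lipe, the hormone-sensitive lipase of the middle step, differed by -0.28 ± 0.13 SE and did not pass (limma, adjusted p = 0.12). Pnpla3, a relative of Pnpla2, was below the floor in 8 of 8 NASH model and 6 of 8 control samples.

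Transcription regulators of lipid storage and use were mostly lower: of 15 measured (Ppard, Srebf1 and Esrra are not analysed here), 9 fell and 2 rose, against 13.4% and 13.2% of all genes, with a median of -0.38. The second of those that rose, Ppargc1a (0.67 ± 0.24 SE; limma, adjusted p = 0.047), lost its call in 10 of 16 omissions of a single sample. The other was Pparg, the adipogenic nuclear receptor, of which Cidec and Plin4 are known targets. It ran from 6.00 through 6.33 to 6.91 in NASH model livers, against 3.69 through 3.94 to 4.75 in control livers, a rise of 2.31 ± 0.15 SE with no overlap (limma, adjusted p = 1.0e-09). Ppara, the receptor for fatty acids that drives their oxidation and Plin2 and Plin5 among other genes, fell by 0.53 ± 0.11 SE without overlap (limma, adjusted p = 7.6e-04). Mlxipl, which encodes the glucose-sensing factor ChREBP, fell by 1.32 ± 0.14 SE (limma, adjusted p = 6.0e-07), and Cebpa by 0.67 ± 0.10 SE (limma, adjusted p = 2.4e-05).

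Pparg and Cidec were both higher in every NASH model sample than in any control. Within groups no relation between them was detected, which with 8 samples does not show that there is none. Across the 8 NASH model samples r was 0.09 (exact permutation p = 0.83) and rho 0.14 (exact p = 0.75), and across the 8 controls r was -0.44 (exact p = 0.28) and rho -0.52 (exact p = 0.20). These 2 relations were added after the data were seen; adjusted over both, p was 0.83 and 0.55 for r and 0.75 and 0.39 for rho. Without the 2 samples farthest from the Cidec median r was -0.38 in NASH model and -0.79 in control livers.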

How the data were processed

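The log2 intensity per probe set was deposited by the authors for 29129 probe sets. How these log2 values were made, and the genome build of the array, are not given in the sources used here. Per the labels' protocols, total RNA came from a TRIzol extraction and carried a biotin label. The platform annotation gave 1 symbol to 19572 probe sets, several to 0 and none to 9557.

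Column medians differed by 0.14, above a limit of 0.1, so quantile normalization was applied; for each gene the probe set with the highest mean was used. limma 3.58.1 in R 4.3.3 (lmFit, eBayes, two-sided) compared 8 NASH model with 8 control samples, group only, with Benjamini-Hochberg adjustment over 19505 genes. On simulated data the recovered share was 37.3% for a log2 change of 0.5, 94% for 1 and 100% for 2, and 4.94% of calls were false; the share recovered depends on how many genes change. No dim genes were removed. The number of arrays limits the precision.

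The members, the lists and the tests were chosen with earlier results of these data known. All 10 members are named; of each companion list the 3 called genes with the largest differences and close partners of the members, and of each marker list the defining genes and the 2 with the largest differences, follow a written rule, although not all are discussed. Other genes named (Lep, Dio2, Pck1, Asgr1, Cps1, Apob, Ppargc1a and the neighbours of Plin4) were chosen after their values were seen.

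NASH model 1a and 1b were kept as separate samples: over genes they differed with an SD of 0.387, and the 27 other pairs of model samples with 0.340 to 0.466. This spread cannot show whether 1a and 1b come from the same animal. The labels do not tie samples to animals; p-values reflect only how these samples spread, which may be technical. The clock score weights 17 clock genes by their first component within groups. Alternatives were other scalings, a filter on the dimmest 40% of genes, probe set means, other variance models, array weights, a clock covariate, a replicate block and the omission of samples; the omission of controls 4 and 5 was added after the data were seen.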

Additional observations from a re-analysis of the deposited data

Results flagged for a closer look

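A sample was singled out where its gap to the nearest other sample of its group took up more of the group's range than Dixon's 95% limit for 8 samples allows. Of 80 gene and group combinations checked, 6 were, 2 of them in members; chance alone singles out about 1 in 20. Plin4 in NASH model 7 was 3.52, against 4.67 to 5.63 in the other 7 model samples. Ppara in the same sample was 7.91, against 8.38 to 8.57. Cidea in control 6 was 1.96, against 2.43 to 2.71, all below the background floor. Bscl2 in control 5 was 6.58, against 6.82 to 6.96 in the other controls. Timd4, a Kupffer cell marker, was 3.53 in control 5, against 4.60 to 5.50. Alb was 12.51 in control 4, against 12.63 to 12.67. After quantile normalization Alb took only the values 12.51, 12.63 and 12.67, which are steps between the top ranks. This gap is therefore a step between ranks and not a measured distance.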

How the results depend on the processing

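Of the members 4 were called higher under the alternatives run, except 3 without NASH model 2 and 7 and with the block, where Plin3 was lost; with the clock score Plin2 passed and Plin3 did not. The number lower was 0, except 1 without NASH model 1a, where Abhd5 passed (0 to 1 over single omissions). Over all genes the 2577 higher and 2619 lower calls became 1523 and 1254 with the clock score, and 1048 lower with spike-in centring, which shifted the median of all genes by 0.13. A replicate block gave 2063 and 1861, and Plin3 was 0.37 under the block (limma, adjusted p = 0.087). Over all genes same-numbered samples did not deviate together (correlations -0.03 to 0.06). The labels do not say what the numbers mean, and a correlation over all genes cannot exclude a pairing. With the exact permutation test, adjusted over the 40 named genes, Cideb passed at -0.12 (exact adjusted p = 0.034). Many of these 40 genes were picked for large differences in the same data, which makes this adjustment mild. Adjusted over all genes, Cideb did not pass (limma, adjusted p = 0.255). The 2 tests also differed for Cideb before any adjustment (exact permutation p = 0.0239, limma p = 0.115).

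Droplet assembly and coat genes numbered 2 higher without NASH model 2 and 7 or controls 4 and 5, 1 higher and 1 lower with the clock score and 1 lower with spike-in centring (2 to 4 higher over single omissions). Regulators numbered 1 higher, in place of 2, as deposited, with median centring, trend and robust options, array weights, 1a and 1b averaged, the clock score, the block, without NASH model 2 and 7 and in 10 of the 16 single omissions (1 to 2), where Ppargc1a did not pass (adjusted p = 0.047 otherwise).

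Sign changes, all in genes or pairs that were not called except Ciart, were these. Plin1 was -0.021 with median centring, -0.013 with 1a and 1b averaged, -0.165 with the clock score, -0.115 with the block and, over single omissions, ran from -0.052 to 0.205. Cideb was 0.014 and Bscl2 0.043 with spike-in centring; Bscl2 was 0.053, G0s2 0.273, Adipoq 0.134 and Ciart -0.404 with the clock score, which Ciart helps to make. Adipoq was 0.001 with the block and Ucp1 0.02 without controls 4 and 5. Over single omissions G0s2 ran from -0.319 to 0.053, Alb from -0.002 to 0.022, Adipoq from -0.127 to 0.011 and G0s2 minus Abhd5 from -0.096 to 0.296; that pair was -0.002 as deposited and -0.079 without NASH model 2 and 7. Without the 2 samples farthest from the Cidec median, r turned to -0.037 for Cidea, -0.501 for Plin3, 0.604 for Plin4 and 0.019 for Abhd5 in NASH model livers, and to -0.086 for Cidea, -0.496 for Cideb, -0.274 for Pnpla2 and 0.33 for Abhd5 in control livers. The causes were not tested.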

Other observations

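NASH model 7 combined a high Cidec (7.89) with low Plin4 and Plin5. Of the nearest genes beside Plin4 and Plin5 in the RefSeq table, Hdgfl2 was also lowest in that sample (5.62, against 5.93 to 6.22 in the other model samples), as was Ubxn6 (5.62, against 5.70 to 6.08). Lrg1 (8.76, against 8.64 to 9.39) and Sema6b (4.29, against 3.81 to 4.64) were not. Low values in this sample were not particular to these neighbours. Hnf4a (8.70, against 8.94 to 9.28) and Fah (10.17, against 10.30 to 10.59) were also lowest in it, while Col3a1 (8.91, against 7.64 to 8.76) was highest. The other markers of these cell types went both ways. Cps1 (10.75) was lowest in model 7 and Apob (12.14) was highest, and Col1a1 (7.71) lay below its value in model 2 (7.72). Over all genes model 7 had the lowest median correlation with its own group (0.9815, against 0.9829 to 0.9871). Pparg was highest in the same sample (6.91, against 6.00 to 6.54) and Ppara was lowest. These genes were chosen after their values were seen, and no test was made on 1 sample.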
